A study of Mus musculus with 6 samples.

Results

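The 4 nuclear factor I genes, Nfia, Nfib, Nfic and Nfix, were followed through the accessible chromatin of visual cortex (V1) astrocytes with and without the glucocorticoid receptor (GR). Their members were the ATAC-seq peaks whose summit lay in the gene body or within 200 kb of it, in the mm10 genome with GENCODE gene positions. Over the 6 libraries these windows held 3516 of 1116429 deposited peaks, from 552 to 622 in each. After summits were merged into sites reaching 200 bp to either side of a summit, with a peak in at least 2 libraries, the loci held 496 of 160874 sites, 173 at Nfia, 127 at Nfib, 85 at Nfic and 111 at Nfix. The remaining 22.6 to 27.1% of each library's summits in the windows fell in no kept site and are counted only in the peak totals.

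The mice carried floxed Nr3c1 alleles (GRfl/fl), which encode GR, and both conditions shared that genotype. At P0–P1 they received an AAV2/5 vector with the astrocyte promoter GfaABC1D and a nuclear-envelope EGFP tag (EGFP-KASH). It carried Cre in GR-KO and the inactive ΔCre in GR-con. At P21, V1 tissue of 3 to 4 mice was pooled for each library, 50000 DRAQ5+/GFP+ nuclei were sorted, and accessible DNA was tagged with the Tn5 transposase, with 3 libraries per condition. The sort selects infected nuclei, so recombination in each nucleus is not known from the label. Expression of the NFI genes was not analysed here.

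NFI proteins are transcription factors that bind DNA as dimers at a palindrome, and also bind more weakly to a single arm of it. In the developing nervous system NFIA and NFIB act downstream of SOX9 and Notch signalling in the onset of gliogenesis and promote astrocyte genes such as Gfap. NFIX takes part in later steps of glial and neural stem cell development, and NFIC is the most widely expressed of the family. The 4 genes lie in different settings. The Nfia window held 1 other protein-coding gene, E130114P18Rik, annotated on the opposite strand across the Nfia start, and the Nfib window held 3. The Nfic and Nfix windows held 31 and 22 others.

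The 4 sites of the loci that differed between GR-con and GR-KO by the test described below, and the only site of the 496 with a GR element, are shown first as mm10 plus-strand sequence, 201 bp around each site's centre. Capitals mark the letters of a single NFI arm, searched as TTGGCA or its reverse complement TGCCAA, or of the GR element (GNACANNNTGTNC). Among the 4 differing sites, 3 hold neither of these. The shorter arm of the palindrome (TTGGC or GCCAA) was not marked on its own. Of those 3 sites, the Nfib intron and Hook2 sequences hold GCCAA.

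Upstream of Nfia, chr4:97761358-97761558: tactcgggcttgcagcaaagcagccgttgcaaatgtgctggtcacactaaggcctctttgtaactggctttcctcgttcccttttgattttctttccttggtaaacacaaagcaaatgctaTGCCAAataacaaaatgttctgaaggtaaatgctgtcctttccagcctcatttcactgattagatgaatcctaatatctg
Upstream of Nfib, chr4:82817114-82817314: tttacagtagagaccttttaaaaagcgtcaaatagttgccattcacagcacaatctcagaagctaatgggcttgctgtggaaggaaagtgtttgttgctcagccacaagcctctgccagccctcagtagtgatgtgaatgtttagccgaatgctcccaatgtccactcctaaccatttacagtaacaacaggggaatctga
Intron of Nfib, chr4:82459011-82459211: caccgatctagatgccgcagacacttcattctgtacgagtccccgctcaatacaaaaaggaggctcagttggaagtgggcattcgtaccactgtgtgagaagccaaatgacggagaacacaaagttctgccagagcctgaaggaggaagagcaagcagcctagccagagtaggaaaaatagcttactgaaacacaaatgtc
Hook2 in the Nfix window, chr8:84998002-84998202: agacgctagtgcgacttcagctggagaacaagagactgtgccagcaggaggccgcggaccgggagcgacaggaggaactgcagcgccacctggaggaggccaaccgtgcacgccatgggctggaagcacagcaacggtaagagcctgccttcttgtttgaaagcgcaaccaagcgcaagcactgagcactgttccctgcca
GR element in Nfia, chr4:98091592-98091792: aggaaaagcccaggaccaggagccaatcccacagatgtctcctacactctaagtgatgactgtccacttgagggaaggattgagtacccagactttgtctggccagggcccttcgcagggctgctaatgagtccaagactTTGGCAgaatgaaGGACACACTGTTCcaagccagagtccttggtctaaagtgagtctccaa

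Each library is a pool of animals, so the spread within a condition is that between its 3 pools. In the limma test below, each site's spread was pulled towards a trend fitted over all sites. Its p-values therefore do not rest on the pools at that site alone. GR-con replicate 3 held the most peaks, 198929, and the other libraries held 179462 to 185393. Each deposited peak carries 2 measures from its own library, a fold over local background and a −log10 p. Both come from a Poisson comparison, so the summit coverage behind them could be solved, and it was a whole number within 0.05 for 100.0% of peaks in every library. The genome background solved in the same way was 4.29, 4.31 and 4.92 in GR-con and 4.54, 4.28 and 4.34 in GR-KO. GR-con replicate 3 thus had the highest background, and its median fold was the lowest, 4.4 against 4.66 to 4.89 in the others. To compare conditions, peaks were ranked within each library, ranks were mapped to a normal score, and GR-KO minus GR-con differences in score were tested in limma with adjustment over all sites. At the deleted gene, 1 of the 17 sites in the Nr3c1 body was lower in GR-KO and 1 was higher by −log10 p rank. The lower site had a −log10 p of 126, 136 and 106 in GR-con and 20.8, 11.2 and 18.6 in GR-KO (difference −0.96 in rank score, SE 0.0924, limma adjusted p = 1.42e-05). The higher site had 20.9, 13.9 and 22.6 in GR-KO, and no peak of any GR-con library overlapped it. It was kept through its GR-KO peaks alone and its GR-con scores are the tied lowest value given to absent peaks, so its fitted difference (1.56, SE 0.291, limma adjusted p = 0.0073) is a description of presence and absence. Promoters of 8 of 8 astrocyte markers held a peak in all 6 libraries, with median percentiles of 91.1 to 92.3 within the lists. Gfap and Sox9 were higher in every GR-KO than in every GR-con library. A peak in all 6 was present at 4 of 6 neuronal, 2 of 6 oligodendrocyte-lineage, 2 of 5 microglial and 4 of 5 endothelial and mural markers. Those of Mog, Mag, Sox10, Cx3cr1, Csf1r, Aif1 and Pecam1, which mark other cell types, held none in any library. Other such promoters held strong peaks in every library. Their percentiles were 89.4 to 92.9 at Pdgfra, 85.9 to 92.8 at Pdgfrb and 85.8 to 89.6 at Snap25. As a set, the neuronal markers held lower peaks, with a median percentile of 60.8 to 67.7 in GR-con and 58.9 to 61.5 in GR-KO. Rbfox3, Gad1 and Gad2 were higher in every GR-con than in every GR-KO library. The endothelial and mural median was 29.8 to 38.5 in GR-con and 25.0 to 26.8 in GR-KO, with Cldn5 lower and Pdgfrb higher in every GR-KO than in every GR-con library. The part of these cells in the differences at the NFI loci was not tested.

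NFI loci were densely accessible in both conditions. Within 200 kb, Nfia held more sites than 99.9% of 21938 protein-coding genes, Nfib more than 99.8%, Nfix more than 99.5% and Nfic more than 95.6%. The genes differ in length, with 346141 bp for Nfia (chr4:97772734-98118874, plus strand), 415578 bp for Nfib (chr4:82290173-82705750, minus strand), 100469 bp for Nfix (chr8:84699876-84800344, minus strand) and 59450 bp for Nfic (chr10:81396186-81455635, minus strand). Per 100 kb of window the counts were 23.2 sites at Nfia, 22.2 at Nfix, 18.5 at Nfic and 15.6 at Nfib, above 99.6, 99.2, 94.7 and 84.8% of those genes. The Nfia and Nfib bodies alone held 111 and 93 sites, against a median of 2 for a protein-coding gene.

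The 2 long loci and the 2 gene-dense loci were built differently. At Nfia, 154 of 173 sites lay in introns, and 11 lay within 1 kb of a protein-coding start. At Nfib these numbers were 95 and 6 of 127. At Nfic 41 of 85 sites lay within 1 kb of such a start, and at Nfix 29 of 111, most of them starts of neighbouring genes. The mean within-list percentile of −log10 p had a median of 33.4 over Nfia sites and 37.1 over Nfib sites, against 71.7 at Nfic and 64.5 at Nfix and 44.9 over all sites. A peak was present in all 6 libraries at 54.3% of Nfia, 58.3% of Nfib, 78.8% of Nfic and 77.5% of Nfix sites, against 62.0% of all sites. Away from protein-coding starts the medians were 32.5 at Nfia, 35.3 at Nfib, 70.3 at Nfic and 58.9 at Nfix, so the order of the long and the gene-dense loci was the same there.

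**Figure D1:**
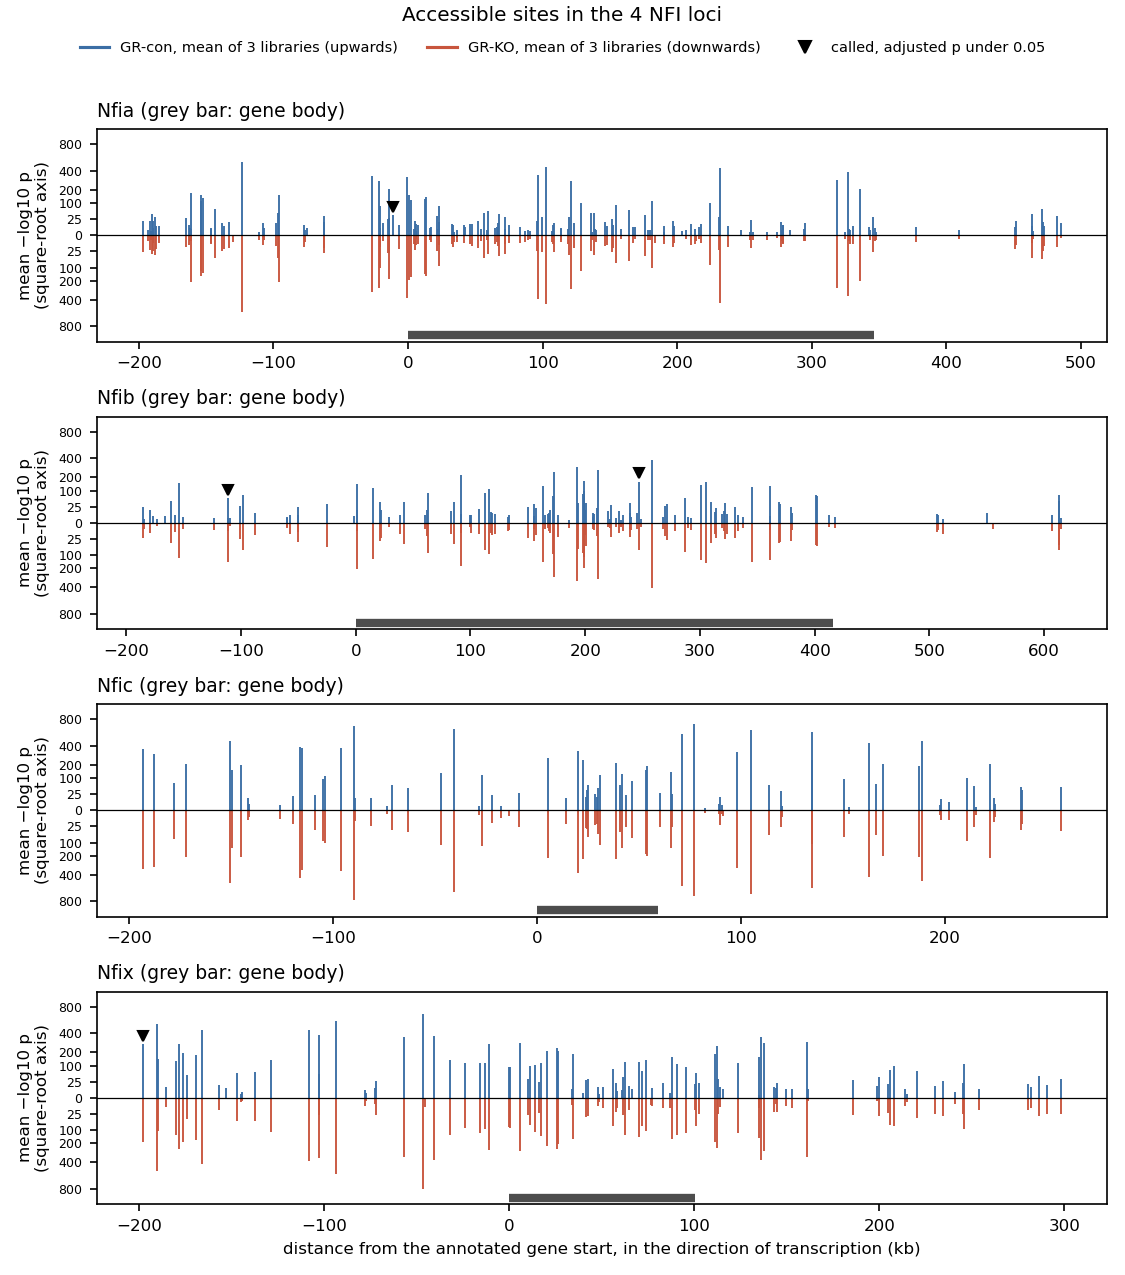
Sites of the 4 loci by distance from the annotated gene start (kb, x axis). Bar height is the mean −log10 p of 3 libraries on a square-root axis, with GR-con upwards and GR-KO downwards, and a library without a peak counted as 0. Upward and downward bars are alike at most sites, and triangles mark the 4 called sites.

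The number of peaks in each window did not separate the conditions. Nfia held 177, 188 and 205 peaks in GR-con and 171, 189 and 187 in GR-KO. Nfib held 144, 152 and 161 in GR-con and 136, 150 and 152 in GR-KO. Nfic held 114, 101 and 112 in GR-con and 110, 113 and 111 in GR-KO, and Nfix 150, 143 and 144 in GR-con and 135, 143 and 128 in GR-KO. The ranges overlapped at every locus. Per 100000 list peaks, Nfia had 100.1 ± 4.07 (SD, n = 3) in GR-con and 99.9 ± 4.01 in GR-KO, and Nfib 80.3 ± 2.39 in GR-con and 79.97 ± 3.66 in GR-KO. Nfic had 57.5 ± 3.55 in GR-con and 61.0 ± 0.61 in GR-KO, and Nfix 76.9 ± 4.29 in GR-con and 74.2 ± 4.19 in GR-KO. None of these differences passed a two-sided exact permutation test, with p of 0.4 to 0.9 (adjusted p of 0.8 to 0.9 over 8 locus tests, n = 3). With 3 libraries against 3 that test cannot give a p under 0.1.

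The strength of the peaks behaved in the same way. The median within-list percentile of −log10 p was 42.7 ± 0.554 (SD, n = 3) in GR-con and 43.9 ± 2.41 in GR-KO at Nfia, and 42.1 ± 2.05 and 44.0 ± 0.524 at Nfib. It was 70.7 ± 3.5 and 66.8 ± 1.55 at Nfic, and 60.6 ± 2.69 and 63.6 ± 2.74 at Nfix. The exact permutation p was 0.3 to 0.6 (n = 3), and the differences did not pass the test. The sign of the difference turned for Nfia, Nfic and Nfix when the gene body alone was counted.

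**Figure D2:**
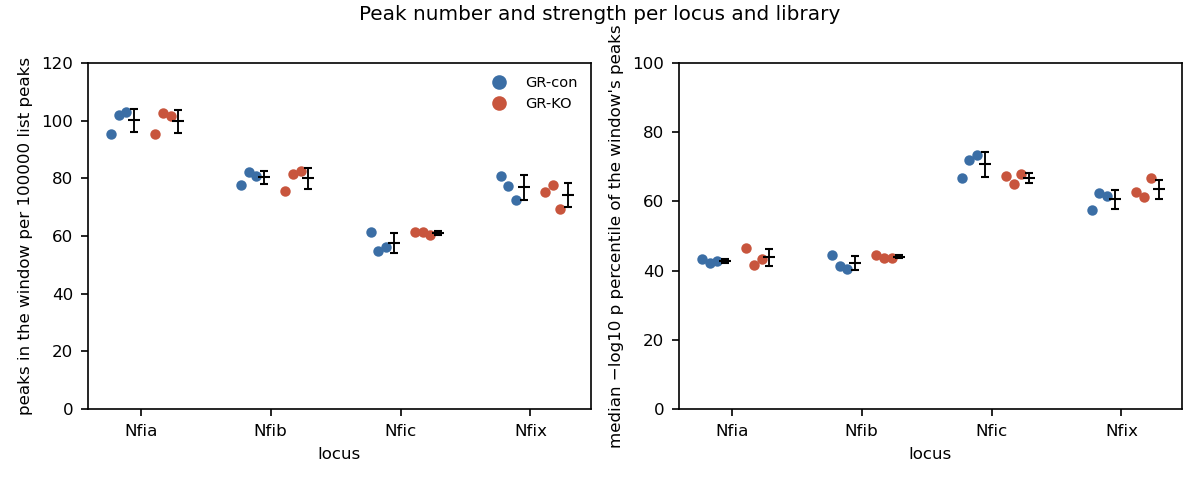
Peaks per 100000 list peaks (left) and median −log10 p percentile of the peaks (right) for each locus. Points are libraries, and bars are the mean ± SD of 3 libraries. GR-con and GR-KO points overlap at every locus in both panels.

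Each gene had a promoter site open in every library, and no promoter site was called by either rank. The loci held 22 sites within 1 kb of a protein-coding start of the 4 genes, 19 of them with a peak in all 6 libraries. Promoters here are these sites. The smallest adjusted p among the 22 was 0.0688 by −log10 p rank and 0.335 by fold rank (limma). At Nfia the strongest of these sites (chr4:97772121-97772521, 413 bp before the annotated start) had a −log10 p of 373, 323 and 277 in GR-con and 349, 423 and 373 in GR-KO, and a fold of 10.7, 9.83 and 8.59 against 9.98, 11.4 and 10.6. The conditions overlapped, and the rank score was 0.17 higher in GR-KO (SE 0.0789, adjusted p = 0.352). The Nfib promoter site (chr4:82506291-82506691, 721 bp from an internal start) had 165, 194 and 161 in GR-con and 179, 207 and 205 in GR-KO (0.11, SE 0.0597, adjusted p = 0.435). The Nfic site (chr10:81430225-81430625, 580 bp from a start in the gene) was the weakest, with 69.0, 68.4 and 52.9 in GR-con and 70.9, 83.1 and 57.8 in GR-KO (0.09, SE 0.0736, adjusted p = 0.617). At Nfix (chr8:84774357-84774757, 188 bp from a start in the gene) the values were 206, 253 and 264 in GR-con and 261, 268 and 240 in GR-KO (0.06, SE 0.0629, adjusted p = 0.745). Within their lists these promoters stood at mean percentiles of 96.7 for Nfia, 93.8 for Nfix, 90.8 for Nfib and 76.8 for Nfic.

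Divided by the genome background of its library, the Nfia promoter coverage was 119 ± 17.4 (SD, n = 3) in GR-con and 135 ± 11.7 in GR-KO. It was 92.0 ± 9.85 and 101 ± 10.2 at Nfib, 48.7 ± 5.74 and 51.8 ± 6.46 at Nfic, and 90.3 ± 5.26 and 98.5 ± 4.74 at Nfix. On the log2 scale the differences were 0.19, 0.14, 0.09 and 0.125 with standard errors of 0.114, 0.115, 0.124 and 0.115, and none of these 4 sites was called (adjusted p of 0.404 to 0.796 from limma). When coverage was instead divided by its median over the sites of each library, a scale added once the values had been seen, the Nfia difference was 0.285 on the log2 scale and was called (adjusted p = 0.028). On that scale 5 of the 19 promoter sites with a peak in all 6 libraries were higher and 0 lower, where 4.68% and 2.62% of all such sites were called, and over the genome background 1 was higher and 0 lower, where 1.97% and 3.93% were. The others were 2 further Nfia sites (chr4:97773169-97773569, 0.299, adjusted p = 0.036, and chr4:97880691-97881091, 0.701, adjusted p = 0.0368), an Nfic site (chr10:81431510-81431910, 0.44, adjusted p = 0.0153) and the site at the upstream start of Nfib.

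**Figure D3:**
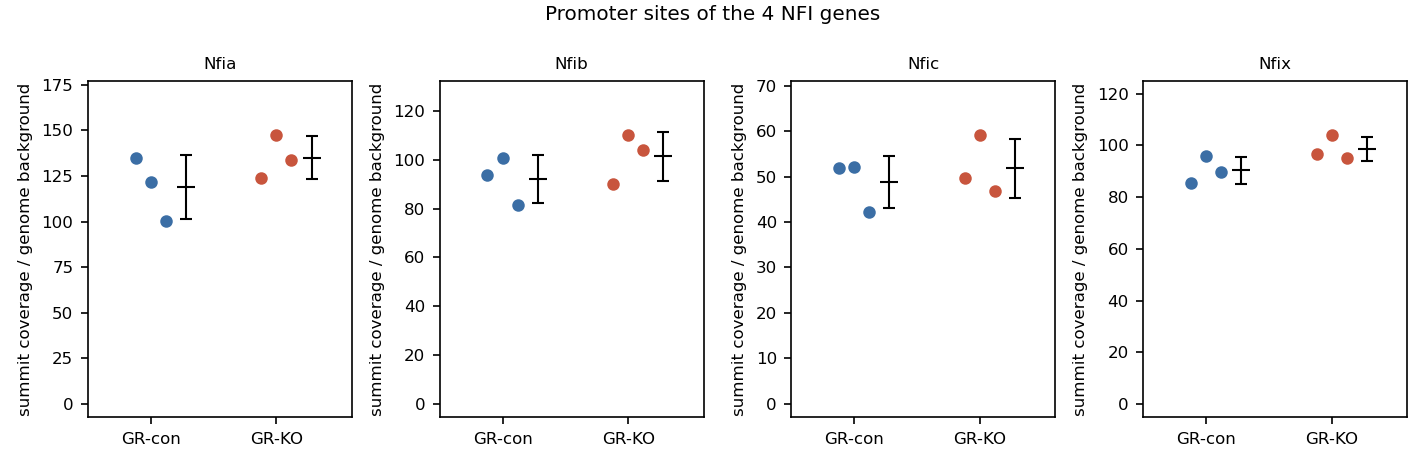
Summit coverage over the genome background of the library at the promoter site of each gene. Points are libraries, and bars are the mean ± SD of 3 libraries. The points of GR-con and GR-KO overlap at Nfia, Nfib, Nfic and Nfix.

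The promoter site nearest to a call by rank was at the upstream start of Nfib (chr4:82704753-82705153, 797 bp inside the gene). Its −log10 p was 182, 137 and 119 in GR-con and 206, 194 and 209 in GR-KO, so that every GR-KO library lay above every GR-con library. Its rank score was higher by 0.25 (SE 0.0667, limma adjusted p = 0.0688). On the log2 coverage scales it was called, with 0.405 over the genome background (SE 0.123, limma adjusted p = 0.024) and 0.499 over the median (SE 0.108, limma adjusted p = 0.00087). It was singled out after its values were seen.

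Between the conditions, 4 of the 496 NFI sites differed. By −log10 p rank, 3 were lower, 1 of them kept through GR-con peaks alone, and 1 was higher in GR-KO (limma on normal scores of within-library ranks, adjusted p under 0.05 over all sites). Over all 160874 sites 0.839% were lower and 0.764% higher, against 0.605% and 0.202% at the NFI loci. Counting the same calls only where each condition had a peak in 2 or more libraries left 2 lower and 1 higher of 387 NFI sites (0.517% and 0.258%), against 0.898% and 0.891% of 120644 sites. By fold rank 0 NFI sites were lower and 1 was higher, where 0.127% and 0.0615% of all sites were called. At an unadjusted p under 0.05, fold rank gave 21 lower (4.23% against 6.02% of all sites) and 23 higher NFI sites (4.64% against 6.11%). The −log10 p rank gave 27 lower (5.44% against 6.37%) and 37 higher (7.46% against 6.98%). The balance of directions depended on the scale. On 2 scales added once the values had been seen, summit coverage was compared over the 321 NFI sites with a peak in all 6 libraries. Over the genome background, 6 were lower (1.87% against 3.93% of all such sites) and 4 higher (1.25% against 1.97%). Over the median coverage, 4 were lower (1.25% against 2.62%) and 16 higher (4.98% against 4.68%). Of the calls over all sites, 66.6% were lower on the first of these scales and 35.9% on the other. The median score difference of the 496 sites was 0.0127 by −log10 p and 0.0264 by fold, against 0.00566 and 0.0165 over all sites.

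**Figure D4:**
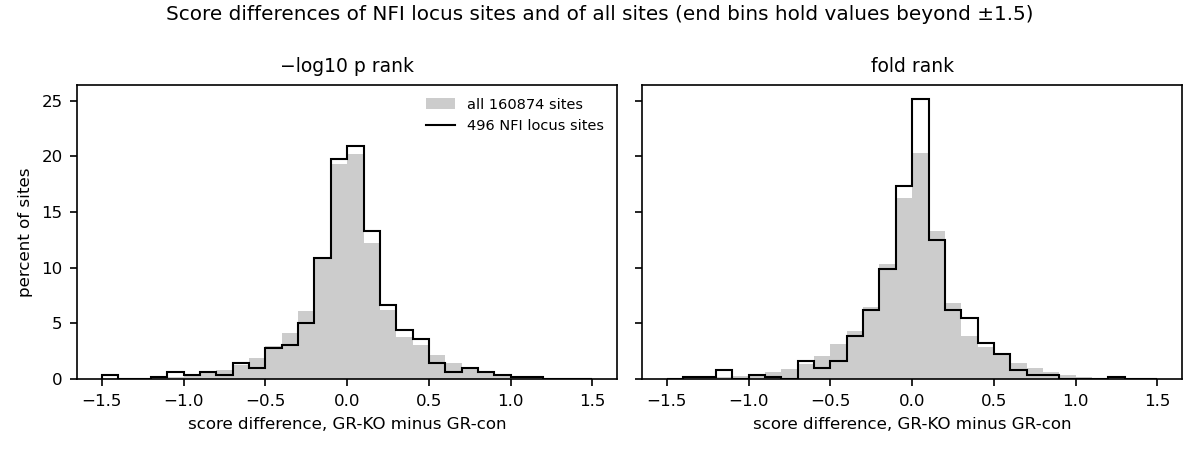
Score difference (GR-KO minus GR-con, x axis) against the percent of sites, for all 160874 sites (grey) and the 496 NFI locus sites (line), by −log10 p rank on the left and fold rank on the right. The NFI distribution follows that of all sites, with medians of 0.0127 and 0.0264.

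The site higher in GR-KO lay 111464 bp upstream of the Nfib start (chr4:82817014-82817414), in an intron of Zdhhc21, a palmitoyltransferase gene whose nearest start is 33600 bp away. Its −log10 p was 37.6, 65.4 and 70.6 in GR-con and 142, 165 and 148 in GR-KO. Its fold was 9.91, 13.7 and 13.1 in GR-con and 20.1, 19.6 and 20.1 in GR-KO. Both measures separated the conditions with no overlap. The rank score rose by 0.58 by −log10 p (SE 0.0764, adjusted p = 0.000296) and 0.69 by fold (SE 0.0972, adjusted p = 0.0463). Coverage over the genome background rose from 16.0 ± 3.39 (SD, n = 3) to 36.2 ± 4.31. Without any single library the −log10 p call held, with adjusted p of 0.00688 to 0.0357. It was lost without the variance trend (0.0991) and when a peak had to cover more than 200 bp of the site (0.0502). The fold call did not hold without any one of the 6 libraries, with adjusted p of 0.14 to 0.197.

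A site inside Nfib fell. It lay in an intron 246639 bp past the annotated start and 46197 bp from the nearest internal start (chr4:82458911-82459311). Its −log10 p was 153, 183 and 159 in GR-con and 71.8, 64.8 and 81.2 in GR-KO, with no overlap. The score fell by 0.43 (SE 0.0626, adjusted p = 0.00081). Coverage over background was 46.1 ± 4.87 (SD, n = 3) in GR-con and 23.8 ± 2.12 in GR-KO. The fold was 13.9, 15.7 and 13.8 in GR-con and 10.8, 9.90 and 11.2 in GR-KO, again without overlap, and was not called by fold rank (adjusted p = 0.127). Without GR-con replicate 2 the adjusted p by −log10 p was 0.0529, and without the variance trend it was 0.104. Nfib thus carried a higher and a lower site by rank.

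At Nfia the called site was present in GR-con alone. It lay 11276 bp upstream of the annotated start (chr4:97761258-97761658), in an intron of E130114P18Rik. GR-con libraries had a −log10 p of 45.3, 39.5 and 30.8 and a coverage of 132, 129 and 112, and no peak of any GR-KO library overlapped the site. The site was kept through its GR-con peaks alone and its GR-KO scores are the tied lowest value given to absent peaks, so its fitted difference (−1.76, SE 0.261, adjusted p = 0.000987, and −1.18 by fold rank, adjusted p = 0.0829) is a description of presence and absence and supports nothing further. With the local background of the nearest peak, a GR-KO summit would have needed a coverage of 40, 44 and 40 to pass the authors' threshold. Neighbouring peaks were present on both sides of the site in all libraries. The summit 2639 to 2650 bp upstream had coverages of 106, 125 and 121 in GR-con and 100, 127 and 96 in GR-KO. Leaving out GR-con replicate 1 gave a limma adjusted p of 0.055, and leaving out GR-con replicate 2 gave 0.0526. It was under 0.05 without each of the others. These fits also set GR-con against tied lowest scores, so they do not measure how stable the difference is.

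The site called in the Nfix window was at its far edge, 197758 bp upstream of Nfix, in a coding exon of Hook2 (chr8:84997902-84998302), which encodes an adaptor for microtubule transport. Its −log10 p was 277, 291 and 259 in GR-con and 214, 175 and 171 in GR-KO. Every GR-con library was higher, and the score fell by 0.26 (SE 0.0586, adjusted p = 0.0295). Among the called sites with peaks in both conditions, this call held in the fewest fits without a single library. Of the fits without a single library, it held only without GR-KO replicate 1 (adjusted p = 0.0467). It was lost without GR-con replicate 1 (0.161), GR-con replicate 2 (0.166), GR-con replicate 3 (0.103), GR-KO replicate 2 (0.156) and GR-KO replicate 3 (0.148). It was also lost with the replicate block (0.0792), with ranks of summit coverage (0.0924), when a peak had to cover more of the site (0.133) and without the variance trend (0.316). With a window of 100 kb this site and the site upstream of Nfib fall outside the loci. Nfic had no called site.

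**Figure D5:**
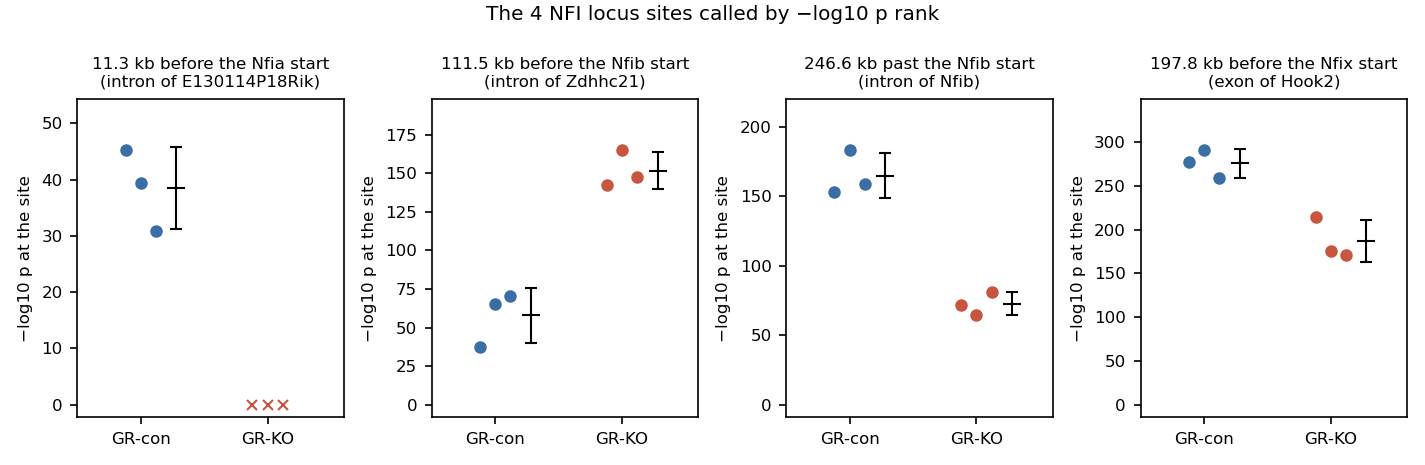
−log10 p (y axis, from 0) at the 4 called sites in each library. Points are libraries, crosses are libraries with no peak, and bars are the mean ± SD of 3 libraries. GR-con and GR-KO do not overlap at any of the 4 sites, and the second panel is the only one with GR-KO above GR-con.

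Peaks present in one condition only were few. In all, 6 NFI sites had a peak in every GR-con and no GR-KO library, or 1.21%, against 1.15% of all sites, with 3 at Nfia, 1 at Nfib, 2 at Nfix and 0 at Nfic. Another 2 had a peak in every GR-KO and no GR-con library, or 0.403%, against 0.622% of all sites, with 1 at Nfic and 1 at Nfix. Besides the Nfia site above, these peaks were weak, with a −log10 p of at most 12.8 in any library. Their p-values, like that of the Nfia site, set one condition against tied lowest scores. A site in an untranslated region of Nfia (chr4:98114946-98115346) had a −log10 p of 5.53, 10.3 and 5.44 in GR-con (adjusted p = 0.228), and one in an intron of Nfia (chr4:97794880-97795280) had 2.82, 5.19 and 3.84 (adjusted p = 0.475). An intergenic site past the end of Nfib (chr4:82155606-82156006) had 12.8, 6.79 and 8.54 (adjusted p = 0.114). In the Nfix window, a coding exon of Rtbdn (chr8:84952820-84953220) had 11.95, 6.14 and 10.7 (adjusted p = 0.11) and an intron of Nacc1 (chr8:84684578-84684978) had 8.65, 10.1 and 6.56 (adjusted p = 0.141). On the GR-KO side, an Nfix intron (chr8:84723230-84723630) had 3.14, 2.64 and 10.6 (adjusted p = 0.256) and a site at Mfsd12 near Nfic (chr10:81363941-81364341) had 2.69, 3.50 and 4.26 (adjusted p = 0.363). At the sites other than the Nfia intron, for which overlap was not examined, no peak of the other condition overlapped the site.

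For each gene, direction and ranking, the site with the smallest unadjusted p was examined, and those not called by rank follow. An intergenic site past the end of Nfia (chr4:98257815-98258215) had a −log10 p of 11.95, 18.7 and 13.7 in GR-con, 2.15 in GR-KO replicate 1 and no peak in GR-KO replicates 2 and 3 (score difference −1.14, SE 0.297, adjusted p = 0.0609). A site 2445 bp inside Nfia (chr4:97774979-97775379) had 122, 124 and 126 in GR-con and 200, 154 and 149 in GR-KO (0.22, SE 0.0605, adjusted p = 0.0866), and was called over the median coverage (adjusted p = 0.00698) but not over the genome background (0.188). An exon of Zfr2 in the Nfic window (chr10:81240868-81241268) had 47.1, 56.5 and 63.7 in GR-con and 18.3, 30.3 and 28.9 in GR-KO (−0.33, SE 0.0943, adjusted p = 0.1). It was called on both coverage scales, with log2 differences of −0.71 over the genome background (adjusted p = 0.0146) and −0.615 over the median (adjusted p = 0.0397). At Nfic itself, 705 bp from a start (chr10:81431510-81431910), the values were 15.5, 17.0 and 17.3 in GR-con and 22.4, 34.0 and 33.3 in GR-KO (0.33, SE 0.122, adjusted p = 0.222). Upstream of Nfia by 6922 bp, the site of the Nfia window with the smallest p among those higher by fold rank (chr4:97765612-97766012) had folds of 3.05, 3.64 and 3.83 in GR-con and 6.82, 5.12 and 4.40 in GR-KO (0.51, SE 0.164, adjusted p = 0.265). In an intron of Tle2 in the Nfic window (chr10:81581697-81582097) the folds were 2.65 and 2.37 in GR-con replicates 1 and 3, with no peak in replicate 2, and 3.79, 3.60 and 4.12 in GR-KO (0.83, SE 0.248, adjusted p = 0.225). Near Ier2 in the Nfix window (chr8:84665303-84665703) the −log10 p was 2.74 in GR-con replicate 1 and 11.7, 12.2 and 6.20 in GR-KO (1.06, SE 0.312, adjusted p = 0.105). There GR-con replicates 2 and 3 had no summit, and peaks with a −log10 p of 144 and 187 overlapped the site with summits 431 and 421 bp away. A site beside the Cactin start in the Nfic window (chr10:81320277-81320677) had 244, 243 and 233 in GR-con, 332 in GR-KO replicate 1 and no summit in GR-KO replicates 2 and 3, where a peak with a −log10 p of 540 and 580 overlapped it with its summit 386 and 408 bp away. Its score difference of −1.80 (SE 0.483, adjusted p = 0.0719) thus rests on where the summit was placed. Without GR-KO replicate 1 it was called (adjusted p = 1.22e-07).

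By −log10 p rank, 13 uncalled sites had an unadjusted p under 0.005, with 3 at Nfia, 5 at Nfib, 2 at Nfic and 3 at Nfix. Those not yet given were chosen after their values were seen. Inside Nfib, 5914 bp from an internal start (chr4:82511484-82511884), the −log10 p was 44.4, 40.8 and 31.0 in GR-con and 85.4, 52.9 and 61.1 in GR-KO (score difference 0.31, SE 0.0858, adjusted p = 0.085). Every GR-KO library was higher, and the site was called on both coverage scales, with log2 differences of 0.404 over the genome background (adjusted p = 0.0312) and 0.499 over the median (adjusted p = 0.00156). A site 24736 bp upstream of Nfib (chr4:82730286-82730686) had 26.4, 37.8 and 40.4 in GR-con and 50.2, 70.2 and 51.3 in GR-KO (0.29, SE 0.0875, adjusted p = 0.121), again without overlap, and was called on neither coverage scale (adjusted p of 0.149 and 0.053). Past the end of Nfia, an intergenic site (chr4:98254841-98255241) had 28.4, 36.7 and 45.8 in GR-con and 10.7, 11.97 and 18.6 in GR-KO (−0.43, SE 0.129, adjusted p = 0.111). Every GR-KO library was lower there, and it was called on both coverage scales, with log2 differences of −0.891 over the genome background (adjusted p = 0.0108) and −0.796 over the median (adjusted p = 0.0289). Past the end of Nfib (chr4:82193934-82194334) the −log10 p was 4.94 in GR-con replicate 1 and 13.0, 11.2 and 12.6 in GR-KO, with no overlapping peak in GR-con replicates 2 and 3 (1.12, SE 0.31, adjusted p = 0.0819). In an intron of the calcium channel gene Cacna1a in the Nfix window (chr8:84601468-84601868) it was 17.3, 10.7 and 12.6 in GR-con and 2.79 in GR-KO replicate 2, with no overlapping peak in the other GR-KO libraries (−1.08, SE 0.3, adjusted p = 0.0821). These 2 sites, the first Nfia site above and those at Ier2 and Cactin were kept through the peaks of one condition, and their p-values set it partly against tied lowest scores.

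The strongest sites away from any protein-coding start were not called. At Nfia this was a site in E130114P18Rik 123259 bp upstream (chr4:97649275-97649675), with a −log10 p of 528, 583 and 454 in GR-con and 625, 536 and 543 in GR-KO (0.13, SE 0.127, adjusted p = 0.717). At Nfib it was an intronic site (chr4:82447229-82447629), with 379, 392 and 378 in GR-con and 449, 400 and 397 in GR-KO (0.09, SE 0.0694, adjusted p = 0.637). In this case every GR-KO value lay above the GR-con values without passing the test. The strongest in the Nfic window, 3000 bp from Tle2 (chr10:81571534-81571934), had 415, 388 and 362 in GR-con and 493, 431 and 408 in GR-KO (0.17, SE 0.0763, adjusted p = 0.357). The strongest in the Nfix window, in an exon of the erythroid factor gene Klf1 (chr8:84903012-84903412), had 391, 370 and 382 in GR-con and 356, 348 and 333 in GR-KO (−0.11, SE 0.0656, adjusted p = 0.484), where every GR-KO value lay below the GR-con values.

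Sequence motifs were sought within 100 bp of each centre, on both strands. The full NFI palindrome (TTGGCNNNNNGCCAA) was in 0 of the 496 NFI sites and in 0.0559% of all sites. A single NFI arm, searched as TTGGCA, was in 88 of 496 sites, or 17.7%, against 20.8% of all sites. These were 37 at Nfia, 31 at Nfib, 9 at Nfic and 11 at Nfix. The shorter arm of the palindrome, TTGGC, was not counted, so these numbers are lower bounds for it. The GR element was in 1 of 496, or 0.202%, against 0.643% of all sites. That site (chr4:98091492-98091892) lies within Nfia, and a TTGGCA arm stands in the same 201 bp. Its −log10 p was 270, 337 and 288 in GR-con and 258, 282 and 273 in GR-KO, overlapping ranges (score difference −0.07, adjusted p = 0.694). By fold the order was the other way, with 19.2, 19.5 and 17.95 in GR-con and 20.3, 20.4 and 20.6 in GR-KO, no overlap (0.16, SE 0.065, adjusted p = 0.389). A match of letters does not show that a factor binds there.

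Sites near genes that act with NFI factors, or under them, were counted in the same way. Within 200 kb of 11 partners and upstream factors (Sox9, Lhx2, Notch1, Rbpj, Hes1, Hes5, Stat3, Zbtb20, Pou3f2, Olig2 and Atf3), GR-KO was lower at 5 of 818 sites and higher at 2 by −log10 p rank (0.611% and 0.244%). Near 10 targets (Gfap, Aldh1l1, Slc1a2, Slc1a3, Fabp7, Apcdd1, Mmd2, Zcchc24, Hey1 and S100b), 4 of 699 were lower and 9 were higher (0.572% and 1.29%). Over all sites the shares were 0.839% and 0.764%. The difference between partners and targets was not tested. Some of these calls were at sites kept through the peaks of the higher condition, with fewer than 2 peaks in the other, so that their p-values set it largely against tied lowest scores. They made 2 of the 5 lower and 1 of the 2 higher calls near partners (at Notch1, Zbtb20 and Sox9), and 1 of the 4 lower and 1 of the 9 higher calls near targets. At the Sox9 site (chr11:112977477-112977877) GR-con replicates 2 and 3 had no summit. Peaks with a −log10 p of 384 and 313 overlapped it there, with summits 594 and 650 bp away, so that call rests on where the summit was placed. Where each condition had a peak in 2 or more libraries, 3 of 634 partner sites were lower and 1 was higher (0.473% and 0.158%), and 3 of 516 target sites were lower and 8 higher (0.581% and 1.55%), beside the 0.898% and 0.891% of all such sites given above. By fold rank 1 site, near Notch1, was lower and 0 were higher. No site was called near 9 of the 21 genes.

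Near Notch1, which encodes a receptor of the pathway that induces NFI genes in gliogenesis, an intergenic site (chr2:26555099-26555499) fell from a −log10 p of 69.4, 67.1 and 67.3 in GR-con to 11.8, 10.4 and 7.53 in GR-KO (score difference −0.90, SE 0.113, adjusted p = 0.000193). In the window of Aldh1l1, an astrocyte folate enzyme, all 3 called sites were lower. At 1 of them, in an Aldh1l1 intron (chr6:90509068-90509468), the −log10 p was 50.0, 41.4 and 24.2 in GR-con and 8.95 in GR-KO replicate 1, and its call rests on tied lowest scores in the other GR-KO libraries, where no peak overlapped it. The one with the smallest adjusted p lay in an intron of the neighbouring gene Klf15 (chr6:90471145-90471545), with 204, 193 and 129 in GR-con and 50.3, 56.5 and 42.1 in GR-KO (−0.65, SE 0.0751, adjusted p = 8.33e-05). The remaining site was intergenic (chr6:90456238-90456638), and its nearest protein-coding start was also that of Klf15, 6138 bp away. It had 128, 93.7 and 55.8 in GR-con and 16.3, 27.7 and 16.5 in GR-KO (−0.685, SE 0.107, limma adjusted p = 0.00165). In the window of Slc1a3, which encodes a glutamate transporter, all 3 called sites were higher. The site 27649 bp upstream (chr15:8738213-8738613) had 72.1, 89.0 and 115 in GR-con and 162, 140 and 148 in GR-KO (0.33, SE 0.0678, adjusted p = 0.0162). The site 71064 bp upstream (chr15:8781628-8782028) had 41.5 in GR-con replicate 1 and 110, 104 and 103 in GR-KO. GR-con replicates 2 and 3 had no summit there, and peaks with a −log10 p of 350 and 345 overlapped it with summits 432 and 440 bp away. Its score difference of 1.78 (SE 0.326, adjusted p = 0.00609) thus rests on where the summit was placed. The promoter of Fabp7, a fatty-acid-binding protein of radial glia and young astrocytes, rose from 80.4, 96.2 and 92.2 to 138, 162 and 119 (0.29, SE 0.0634, adjusted p = 0.0231). At the Gfap window a single site in an intron of Nmt1 was higher, with 22.8, 43.4 and 50.6 in GR-con and 62.7, 86.8 and 83.0 in GR-KO (0.40, SE 0.0941, adjusted p = 0.0358).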

How the data were processed

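ATAC-seq was performed on 6 nuclear libraries, 3 GR-con and 3 GR-KO. Per the study's methods, the authors processed reads with the ENCODE ATAC-seq pipeline on mm10, with a peak p-value threshold of 0.01 and multimapping set to 0. The deposited peak lists give per peak a fold over local background (a ratio) and the −log10 of the p-value and q-value. Lists were deposited per library and hold no read counts, so the authors' count test (edgeR in DiffBind) could not be repeated, and weak peaks compete with list length.

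Summits within 200 bp were merged into sites, strongest first, and sites with a summit in at least 2 libraries were kept. Within each library, fold and −log10 p were ranked, absent peaks tied lowest, and the ranks mapped to normal scores. The conditions were then contrasted in limma 3.58.1 (R 4.3.3, variance trend, two-sided), with Benjamini-Hochberg adjustment over all 160874 sites. A score difference is GR-KO minus GR-con, and a call is an adjusted p under 0.05. Locus values were compared with exact permutation tests. Depth is known only as the summit coverage solved from fold and p. Scripts were tested on simulated data. Genes and sequences came from GENCODE and GRCm38.

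Sites named were, per gene, the strongest promoter site, the strongest distal site, those with the smallest p in each direction, those called, and up to 2 present in one condition only. The members and lists were chosen with earlier results of these data known. Same-numbered libraries were not paired (correlations of their deviations from −0.00719 to 0.0306). Alternatives covered list length, peak overlap, library minimum, variance trend, replicate block, window, threshold, scale and leaving out each library.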

Additional observations from a re-analysis of the deposited data

How the results depend on the processing

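Called sites and presence were counted again under each alternative. NFI sites lower by fold rank (0) numbered 1 with q-values under 0.01, 4 without a variance trend, 4 with ranks of summit coverage, 6 with log2 coverage over genome background and 4 over median coverage. Those higher by fold rank (1) numbered 2 when a peak had to cover the site, 0 at an adjusted p under 0.01, 0 within 100 kb, 0 in gene bodies, 2 with coverage ranks, 4 over background, 16 over the median, and 0 to 0 without one library. Those lower by −log10 p (3) numbered 5 with q-values, 6 without the trend (which lost the Nfib intron site, adjusted p = 0.104, and the Hook2 site, 0.316), 1 in gene bodies, 0 with log2 fold, 6 over background, and 0 to 4 without one library. Those higher (1) numbered 3 with a peak in all 6 libraries, 0 within 100 kb, 0 in gene bodies, 2 with coverage ranks, 4 over background and 16 over the median. The 2 coverage scales were chosen after seeing the data. Over all sites with 6 peaks, 66.6% of calls were lower over background and 35.9% over the median, with medians of all sites of −0.0502 and 0.0445 (log2). With the replicate block, fold rank called 0 higher NFI sites and −log10 p 2 lower and 1 higher, and the libraries share only a number. Sites in GR-con alone (6, where all sites gave 1.15%) numbered 10 with q-values (1.27%), 2 in gene bodies and 8 to 12 without one library (1.92 to 2.32%), and those in GR-KO alone (2, 0.622%) numbered 1 (0.531%), 1 and 3 to 7 (1.08 to 1.47%). Leaving out a library of one condition loosens the presence rule by construction. For peaks per 100000, the Nfia difference (−0.246) was 2.26 with q-values, 0.929 with equal lists and −2.57 to 2.05 without one library. For Nfib (−0.346) it was 0.579, 0.929, 0.128 with distinct intervals, and −1.67 to 1.75. For Nfix (−2.75) it was 1.31 in the gene body and −5.02 to −0.441 without one library, and for Nfic (3.51) 2.11 to 5.5. The median percentile difference at Nfia (1.13) was −0.363 within 100 kb, −2.85 in the body, −1.78 by fold and −0.159 to 2.22 without one library. In the body it was 2.61 at Nfic and −3.02 at Nfix, and without one library −5.93 to −2.63 at Nfic, 1.48 to 4.13 at Nfix and 1.12 to 3.07 at Nfib. No locus value went below an exact p of 0.1, the smallest possible. The Nfix promoter by fold rank ranged from −0.0112 (without GR-con replicate 1) to 0.0617 without one library, and the Klf1 site to 0.00369 over the median. The cause of these changes was not tested.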
